A study of Mus musculus with 28 samples.

Results

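10 genes of calcium release, refilling and decoding were followed in mIMCD-3 cells, an immortalized mouse inner medullary collecting duct line. They were the 4 genes of calcium/calmodulin-dependent protein kinase II (CaMKII), Camk2a, Camk2b, Camk2d and Camk2g, the 3 IP3 receptor genes Itpr1, Itpr2 and Itpr3, the pump gene Atp2a2, and the store-operated entry genes Stim1 and Orai1. They were chosen by name, and all 10 were found among the 45706 genes listed in the expression tables. RNA was sequenced from 28 libraries in 7 groups of 4. The groups were polyclonal wild-type cells, the monoclonal wild-type line WT5 grown from 1 sorted cell, and subclones 1 to 5, each grown from 1 sorted cell of WT5 over several weeks. No group carried an edit or received an agent, and all were grown in medium with fetal bovine serum and harvested 4 days after confluency. The line comes from mice with an SV40 transgene, WT5 stands for 1 clone only, and the labels do not say whether replicates came from separate cultures, so that p-values may measure technical spread alone. Polyclonal cells were sequenced as short single-end reads and the monoclonal lines as longer paired-end reads at other times. Sequencing and line therefore cannot be told apart in the comparison of WT5 with polyclonal cells. Values are in TPM, a transcript level corrected for transcript length and scaled to the same total in every library, and the depth behind them is unknown.

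IP3 receptors are channels of the endoplasmic reticulum (ER) that let calcium out of the store when the messenger IP3 binds. The pump SERCA2, encoded by Atp2a2, refills the store, and when the store empties, its luminal sensor STIM1 opens the plasma membrane channel ORAI1. Calcium in the cytosol binds calmodulin, which switches on CaMKII, a kinase that assembles into rings from its alpha, beta, gamma and delta subunits. In kidney tubules these proteins pass on signals of hormones, flow and primary cilia.

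All 10 genes of the epithelial marker list, such as Krt8, Cdh1, Epcam and Pax8, were at 1 TPM or more in every library. Among 11 markers of the collecting duct principal cell only Hsd11b2, Scnn1g and Tfcp2l1 were, and the water channel gene Aqp2 was listed at 0 in every library. The vasopressin receptor gene Avpr2 and the transcription factor gene Gata3, also on that list, were at 10.6 ± 0.58 and 4.08 ± 1.10 TPM in polyclonal cells (SD, n = 4) and at 0.06 and 0.04 TPM in WT5, and at most 0.2 and 0.158 TPM as subclone means. Other markers of that list went the other way. Hsd11b2 was at 2.0 TPM in polyclonal cells and 4.41 TPM in WT5, and Tfcp2l1 at 8.04 and 10.2 TPM. Scnn1g was lower in WT5, at 14.3 and 4.85 TPM, and at 3.2 to 16.0 TPM as subclone means. The summed level of the 11 markers was 38.9 to 41.5 TPM in polyclonal cells, 20.1 to 22.2 TPM in WT5 and 18.3 to 37.8 TPM in the subclones. The leukocyte markers Adgre1 and Cd3e, the muscle markers Myh6, Myh7 and Myod1, the endothelial marker Emcn and the fibroblast marker Lum were also at 0 throughout. Other markers of the same lists were not. Among leukocyte markers, Csf1r was at 10.6 ± 0.57 TPM in polyclonal cells, 38.8 ± 3.03 TPM in WT5 and 33.2 to 48.2 TPM as subclone means, and Cd68 at 1.83 to 3.73 TPM as group means. The muscle marker Tnnt2 was at 1.35 ± 0.16 TPM in polyclonal cells, 21.7 ± 2.28 TPM in WT5 and 14.7 to 21.3 TPM as subclone means, and the neuronal marker Tubb3 at 3.43, 12.3 and 8.43 to 15.1 TPM. The neuronal marker Map2 went the other way, at 5.55 TPM in polyclonal cells, 2.15 TPM in WT5 and 0.92 to 3.7 TPM as subclone means. Grin1, of the same list, was at 0.85 TPM in polyclonal cells and 0.065 TPM in WT5. The part of these differences in the results was not tested. The number of genes above 0 was 18681 to 19272 in the polyclonal libraries and 16270 to 17004 in the monoclonal ones.

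Promoter sequences are shown for 4 members that differed between WT5 and polyclonal cells, Camk2d, which was lower in WT5, and Itpr2, Itpr3 and Orai1, which were higher. RefSeq (GRCm38.p6) held 6 of the 10 members, with 250 bases before and 50 after the start. Capitals mark the GC box (GGGCGG or, on the other strand, CCGCCC), and the stretches lie at chr3:126596701-126597000 on the plus strand, chr6:146502174-146502473 on the minus strand, chr17:27057054-27057353 on the plus strand and chr5:123014824-123015123 on the plus strand.
Camk2d: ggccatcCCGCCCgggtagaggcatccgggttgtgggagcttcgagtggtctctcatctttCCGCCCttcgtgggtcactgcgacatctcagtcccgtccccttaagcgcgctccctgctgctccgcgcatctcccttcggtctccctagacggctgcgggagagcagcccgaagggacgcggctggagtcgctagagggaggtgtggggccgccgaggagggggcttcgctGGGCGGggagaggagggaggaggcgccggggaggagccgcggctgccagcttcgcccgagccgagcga
Itpr2: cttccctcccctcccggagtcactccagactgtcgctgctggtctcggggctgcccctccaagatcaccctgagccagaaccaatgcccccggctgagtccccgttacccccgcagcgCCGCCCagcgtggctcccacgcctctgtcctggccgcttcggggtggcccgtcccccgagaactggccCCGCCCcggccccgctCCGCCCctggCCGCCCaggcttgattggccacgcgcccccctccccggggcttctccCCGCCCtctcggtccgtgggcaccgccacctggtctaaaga
Itpr3: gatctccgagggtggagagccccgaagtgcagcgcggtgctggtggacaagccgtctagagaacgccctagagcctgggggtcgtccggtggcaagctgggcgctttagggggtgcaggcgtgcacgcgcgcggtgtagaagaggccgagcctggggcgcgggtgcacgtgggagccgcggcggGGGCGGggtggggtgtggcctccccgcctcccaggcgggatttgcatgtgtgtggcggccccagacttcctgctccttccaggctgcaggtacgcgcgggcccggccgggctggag
Orai1: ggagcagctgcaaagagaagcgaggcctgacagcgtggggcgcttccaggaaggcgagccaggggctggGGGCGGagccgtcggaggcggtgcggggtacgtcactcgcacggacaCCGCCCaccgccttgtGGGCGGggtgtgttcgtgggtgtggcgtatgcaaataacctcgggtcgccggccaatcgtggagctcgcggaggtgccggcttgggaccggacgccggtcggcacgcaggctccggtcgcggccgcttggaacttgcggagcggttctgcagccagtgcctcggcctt
The GC content of these 4 promoters was 70.3%, 73.3%, 72.3% and 70.3%, against a median of 52.7% over 32851 promoters in the same table. Camk2d held 3 GC boxes, Itpr2 5, Itpr3 1 and Orai1 3, and 35.66% of all promoters held at least 1. The letters CCAAT (or ATTGG), which 37.41% of all promoters held, were found at 2 places in Itpr2 and 1 in Orai1, and the letters TATAAA (or TTTATA; 13.62% of all) in none of the 4. The letters GGAAA (or TTTCC; 61.34% of all) were found at 1 place in Camk2d and TGACG (or CGTCA; 20.81%) at 1 place in Orai1.

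The kinase genes were led by Camk2d in every group. Camk2d (ENSMUSG00000053819, chr3:126596302-126846326 in GRCm38), the gene of the delta subunit, was at 81.5, 73.4, 76.5 and 77.5 TPM in the polyclonal libraries and at 40.6, 45.6, 49.1 and 43.2 TPM in WT5. Each WT5 library thus lay below each polyclonal one, and the mean fell from 77.2 ± 3.37 to 44.6 ± 3.63 TPM (SD, n = 4 each). Camk2g (ENSMUSG00000021820, chr14:20734875-20794088), the gene of the gamma subunit, was at 14.2, 14.2, 14.8 and 13.7 TPM in polyclonal cells and at 17.3, 19.6, 17.95 and 17.4 TPM in WT5. Camk2a (ENSMUSG00000024617) and Camk2b (ENSMUSG00000057897, chr11:5969644-6066362), the genes of the alpha and beta subunits that dominate in neurons, never passed 0.26 and 0.42 TPM. In a polyclonal library each, both were listed at 0, so neither entered the test between WT5 and polyclonal cells. The longest stretch that Camk2d and Camk2g transcripts shared was 23 bases, printed here because it bounds how far reads could be taken for the other gene: atcaacaatggggactttgaggc. No 50-base stretch of the longest transcript of either occurred in another gene.

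Between WT5 and polyclonal cells, 6 of the 8 members that could be tested differed at an adjusted p below 0.01 in limma on log2(TPM) z-score transformed within each library, and 65.5% of the 13723 genes tested did so, so that the share of members is near the background. Of the 6, 4 were higher in WT5, as were 34.5% of all genes at that threshold, and 2 lower, as were 30.9%. None of the 8 passed the study's second threshold of a z-score difference above 1, which 5.43% of all genes passed. The median log2 difference over all genes was 0.24. Without overlap between the groups were 7 of the 8 members and 72.3% of all genes. In bulk RNA, fewer cells expressing a gene and less RNA per cell cannot be told apart.

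Camk2d fell by 0.79 on the log2 scale (SE 0.07, z-score difference -0.32, limma adjusted p = 4.13e-06). Camk2g was 0.34 higher on the log2 scale but 0.04 on the z-score scale, with an adjusted p of 0.0373 in limma. Counted as shares of the summed TPM of the 4 kinase genes, Camk2d held 84.4% ± 0.77 in polyclonal cells and 70.7% ± 1.59 in WT5 (SD, n = 4), and Camk2g 15.6% ± 0.74 and 28.7% ± 1.47. Both shares were apart in all libraries, with the exact permutation test at p = 0.0286, two-sided and the smallest that 70 assignments allow. Camk2a and Camk2b held little of the sum, so that the shares of Camk2d and Camk2g mirror each other and are not separate results. The summed level of the 4 genes was 87.7 to 95.8 TPM in polyclonal cells and 58.4 to 67.4 TPM in WT5.

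**Figure D1:**
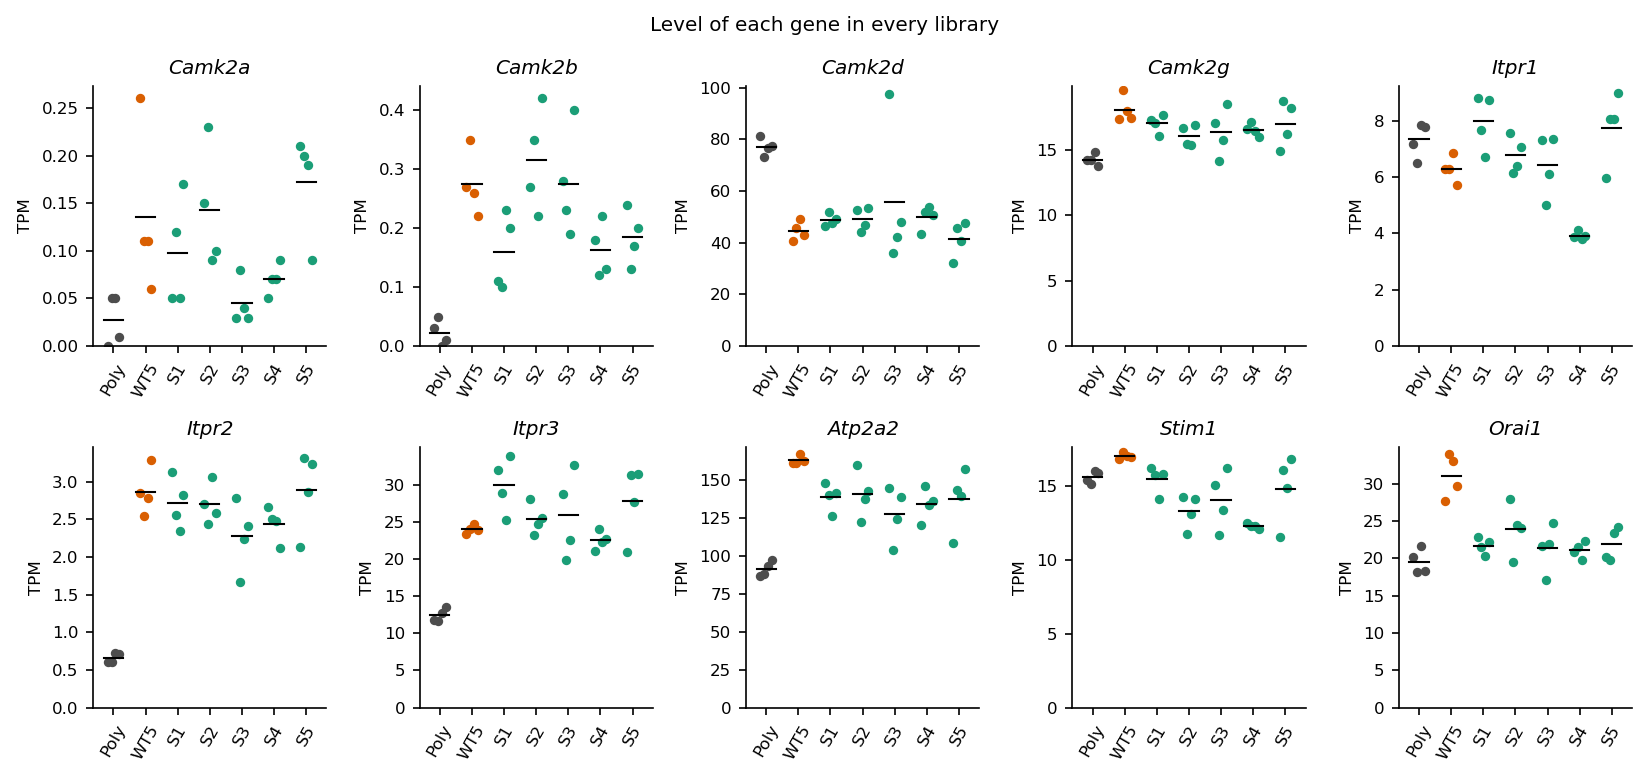
Level of each of the 10 genes in TPM (vertical axis, from 0, own scale per panel) in polyclonal cells (Poly), WT5 and subclones 1 to 5 (S1 to S5); points are libraries and bars group means, n = 4. Camk2d is lower in WT5 than in polyclonal cells, with 1 library of subclone 3 at 97.4 TPM, and Itpr1 is lowest in subclone 4.

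The 3 release channels moved apart between the lines. Itpr2 (ENSMUSG00000030287, chr6:146108299-146502223) was at 0.60, 0.60, 0.73 and 0.71 TPM in polyclonal cells and at 2.85, 2.55, 2.78 and 3.29 TPM in WT5. This was the largest difference of the members tested, 2.12 on the log2 scale (SE 0.10, limma adjusted p = 1.49e-06). Itpr3 (ENSMUSG00000042644, chr17:27057304-27122223) was at 11.8, 11.7, 12.8 and 13.5 TPM in polyclonal cells and at 23.4, 24.1, 24.7 and 23.8 TPM in WT5. The libraries did not overlap, and the log2 difference was 0.95 (SE 0.06, limma adjusted p = 6.85e-06). Itpr1 (ENSMUSG00000030102, chr6:108213096-108551109), the type that dominates in neurons, was at 7.19, 6.50, 7.87 and 7.80 TPM in polyclonal cells and at 6.29, 6.29, 6.87 and 5.71 TPM in WT5. The groups overlapped, and it fell by 0.22 on the log2 scale (SE 0.08), with a limma adjusted p of 0.000712 on z-scores. That call was lost without the z-score (limma adjusted p = 0.0379) and with 0.1 TPM added (adjusted p = 0.323).

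The make-up of the IP3 receptor genes shifted with these changes. Of their summed TPM, Itpr3 held 60.9% ± 1.11 in polyclonal cells and 72.4% ± 0.60 in WT5, Itpr1 35.9% ± 1.07 and 19.0% ± 1.11, and Itpr2 3.22% ± 0.15 and 8.65% ± 1.00 (SD, n = 4). None of these 3 shares overlapped between the lines (exact permutation test, two-sided, p = 0.0286 for each). The summed level was 18.8 to 22.0 TPM in polyclonal cells and 32.5 to 34.4 TPM in WT5. Itpr1, Itpr2 and Itpr3 have longest transcripts of 9870, 11679 and 8990 bases, and the libraries of the lines differ in read type. With a trend on transcript length removed from each library, an alternative added after seeing the data, Itpr1 fell by 0.64, Itpr3 was 0.54 higher and Itpr2 1.70 higher on the log2 scale, and each still passed the limma test. Of the 50-base stretches of their longest transcripts, 2.03% in Itpr1 and 1.51% in Itpr3 also occurred in other genes, and none in Itpr2. Those of Itpr3 occurred in its antisense gene Itpr3os. Reads of such stretches may be shared.

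**Figure D2:**
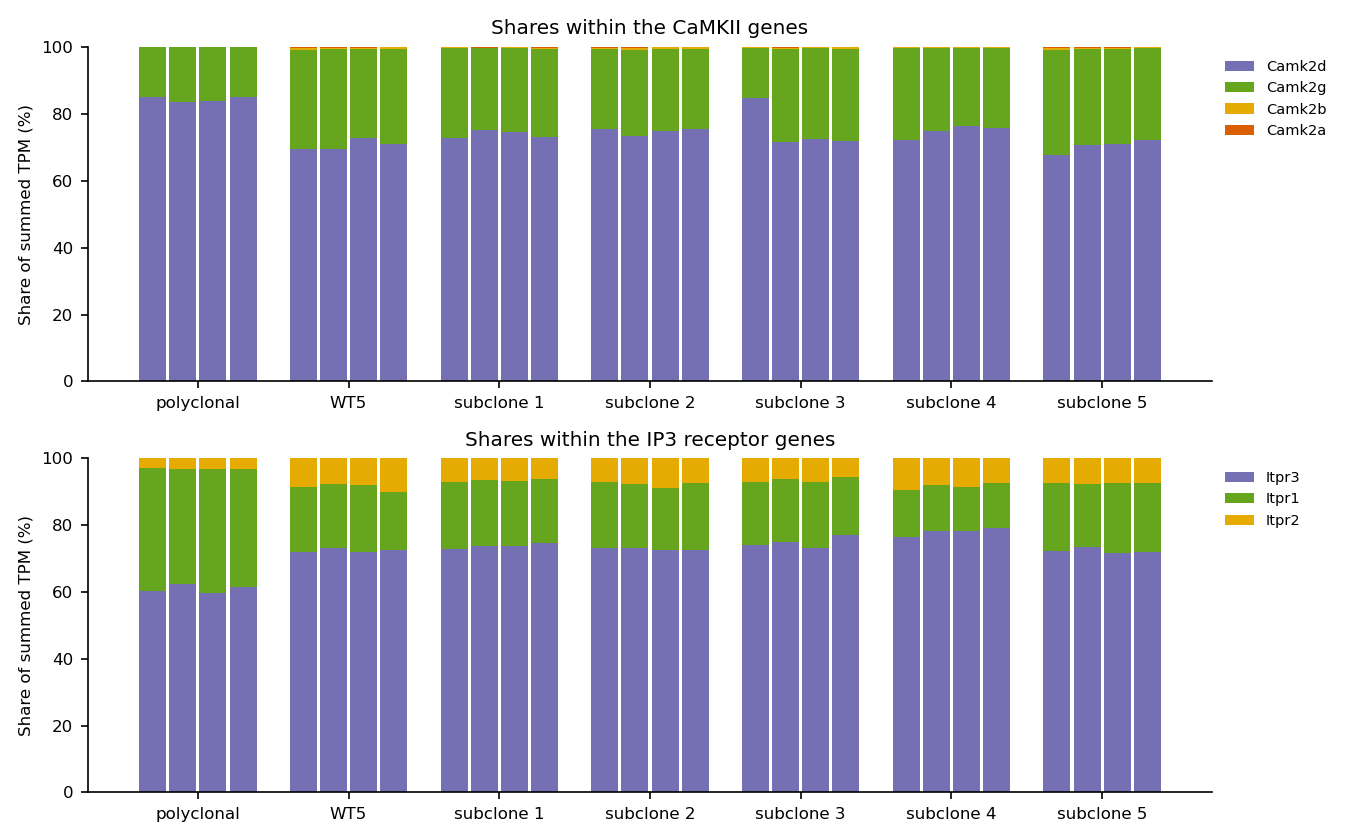
Share of each gene in the summed TPM of the 4 CaMKII genes (top) and the 3 IP3 receptor genes (bottom), in percent; each bar is 1 library, in groups of 4. Camk2d takes 83.7 to 85.1% in polyclonal cells and 69.4 to 72.8% in WT5, and Itpr1 13.3 to 14.0% in subclone 4.

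The refilling pump and the entry channel were higher in WT5, and the store sensor nearly level. Atp2a2 (ENSMUSG00000029467, chr5:122453513-122502225) was at 86.3, 88.2, 93.2 and 97.0 TPM in polyclonal cells and at 161, 161, 167 and 162 TPM in WT5. Orai1 (ENSMUSG00000049686, chr5:123015074-123030456) was at 20.1, 18.1, 21.7 and 18.3 TPM in polyclonal cells and at 27.7, 34.0, 33.0 and 29.6 TPM in WT5. Both sets of libraries were apart, with log2 differences of 0.84 (SE 0.05, limma adjusted p = 1.04e-05) for Atp2a2 and 0.67 (SE 0.09, limma adjusted p = 0.000738) for Orai1. With the length trend removed, Atp2a2 was 0.55 higher on the log2 scale. Stim1 (ENSMUSG00000030987, chr7:102267806-102437319) was at 15.4, 15.2, 16.0 and 15.9 TPM in polyclonal cells and at 16.8, 17.3, 17.0 and 17.0 TPM in WT5. Its libraries were apart, but its sign depended on the scale, with a log2 difference of 0.13 (SE 0.04) and a z-score difference of -0.03 (limma adjusted p = 0.0302).

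Genes near the members on the chromosome were set beside them, over genes at 1 TPM or more in every library compared. Within 5 Mb of Camk2d, 22 of 34 genes were lower in WT5 and the median log2 difference was -0.50, against 0.25 over 10897 genes. All 16 bins of 10 Mb on chromosome 3 had a median below that of all genes, with differences from it of -0.81 to -0.16 on the log2 scale. Near Atp2a2 and Orai1, which lie on chromosome 5 less than 1 Mb apart and share most neighbours, 82 of 92 genes were higher, with medians of 0.68 and 0.71. On chromosome 5, 14 of 14 bins with at least 8 genes lay above the median of all genes. Over the genome, 27 of 256 such bins were lower by 0.4 or more relative to all genes and 16 higher. Relative to the median of all genes, 0.25, Camk2d, Atp2a2 and Orai1 lay on the same side as their neighbours' medians. So did Itpr3, Stim1 and Itpr1, whereas Itpr2 and Camk2g lay above 0.25 and their neighbours' medians below it. The 2.12 of Itpr2 stood beside a median of 0.11 over 30 neighbours, and the 0.95 of Itpr3 beside 0.40 over 156. For Camk2g, 0.34 stood beside 0.10, and for Stim1 0.13 beside 0.18. For Itpr1, -0.22 stood beside 0.20, of opposite sign but both below 0.25. The part of the neighbourhood in these differences was not tested.

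**Figure D3:**
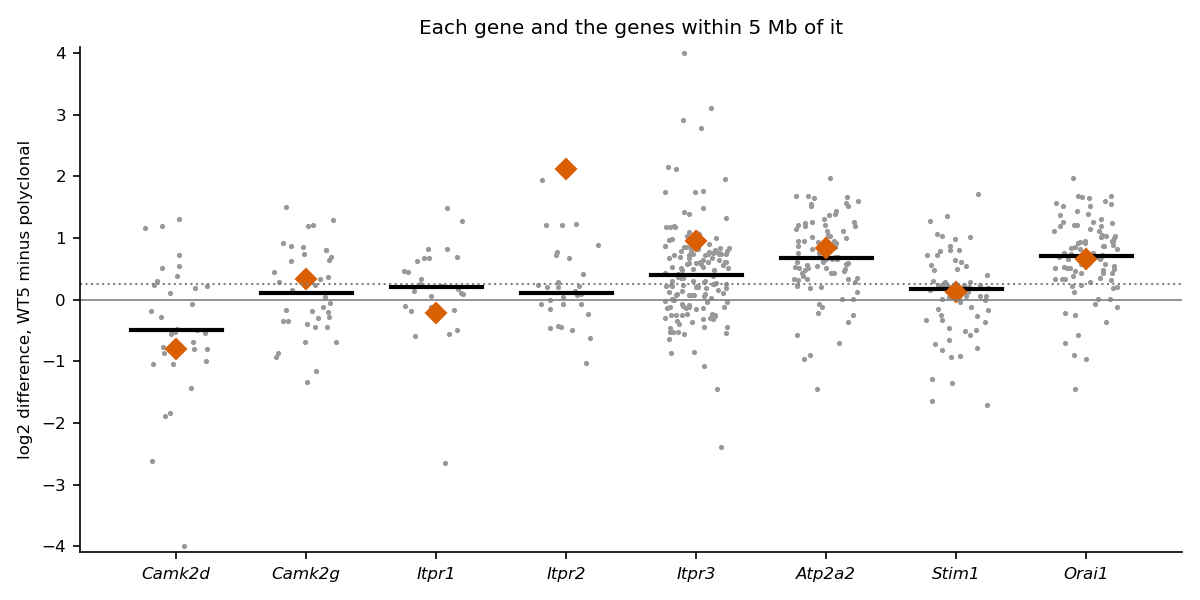
Log2 difference of WT5 minus polyclonal cells (vertical axis) for 8 members (diamonds) and for genes within 5 Mb of each (dots, clipped at 4 either way); bars are neighbour medians, the dotted line the median of all genes, 0.25. Camk2d, Atp2a2, Orai1, Camk2g and Stim1 lie at -0.79, 0.84, 0.67, 0.34 and 0.13, beside neighbours' medians of -0.50, 0.68, 0.71, 0.10 and 0.18. Itpr2 lies far above its own, 0.11, Itpr3 above its own, 0.40, and Itpr1 below its own, 0.20.

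Each subclone was then compared with WT5. At an adjusted p below 0.01 in limma, 2 of 10 members differed from WT5 in subclone 1, where 26.3% of 13860 genes did, 1 in subclone 2 (26% of genes), 1 in subclone 3 (19.5%), 4 in subclone 4 (37.3%) and 1 in subclone 5 (21.9%). These shares of members lie below the background in 4 of the 5 subclones, and close to it in subclone 4. With only 10 members, such gaps are not read as a trait of these genes. Higher than WT5 was 1 member in subclone 1 (12.7% of genes) and 0 members in subclones 2, 3, 4 and 5, against 13.4%, 8.65%, 18.2% and 10.2% of genes. Lower were 1, 1, 1, 4 and 1 members in subclones 1 to 5, against 13.6%, 12.6%, 10.9%, 19.2% and 11.7% of genes. Groups did not overlap with WT5 for 4, 3, 3, 5 and 3 members, against 42.1%, 39.5%, 37.4%, 50.5% and 38.4% of genes. No member also passed the z-score difference of 1, as 0.152%, 0.144%, 0.173%, 0.202% and 0.173% of all genes did in subclones 1 to 5. The 5 comparisons share the same 4 WT5 libraries, and the subclones come from a separate table, so that a difference from WT5 shared by all subclones cannot be told apart from a difference between tables.

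Orai1 showed such a shared difference. It was at 27.7 to 34.0 TPM in WT5 and at 20.3 to 22.9 TPM in subclone 1, 19.5 to 27.9 in subclone 2, 17.1 to 24.7 in subclone 3, 19.7 to 22.3 in subclone 4 and 19.8 to 24.2 in subclone 5. Every library of subclones 1, 3, 4 and 5 lay below WT5, with decreases of 0.52 (SE 0.08), 0.55 (SE 0.12), 0.56 (SE 0.08) and 0.51 (SE 0.10) on the log2 scale and limma adjusted p-values of 0.00112, 0.00492, 0.000596 and 0.00893. In subclone 2 it was 0.38 lower on the same scale and missed the threshold (limma adjusted p = 0.0335). Of all genes, 7.26% fell in at least 4 subclones at that threshold. The call was lost in subclone 5 without any 1 of the 8 libraries (adjusted p up to 0.0279 in limma), and in subclone 3 without replicate 2, 3 or 4 of WT5 or replicate 1 or 3 of subclone 3 (adjusted p up to 0.0176). With the unequal-variance test it was lost in both (adjusted p = 0.0242 and 0.0155), and the level in the subclones, 21.1 to 23.98 TPM as group means, was near the 19.6 TPM of polyclonal cells.

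Stim1 was at 16.8 to 17.3 TPM in WT5 and below that in all 20 subclone libraries, 11.5 to 16.8 TPM. It passed the limma test in subclone 2, with 13.3 ± 1.18 TPM (SD, n = 4, log2 difference -0.36, adjusted p = 0.00195), and in subclone 4, with 12.3 ± 0.16 TPM (log2 difference -0.47, adjusted p = 3.57e-05). With the unequal-variance test the call of Stim1 in subclone 2, the only member called there, was lost (adjusted p = 0.022, against 0.00195 in limma). Atp2a2 was also below WT5 in each of the 20 libraries, at 103 to 160 TPM, but passed the test in no subclone, with limma adjusted p-values of 0.0241 to 0.377. The group means of Atp2a2 were 128 to 140 TPM, between WT5 at 163 and polyclonal cells at 91.2. Of all genes, 12.3% had every library of all 5 subclones below WT5.

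Itpr3 was higher in subclone 1, at 32.0, 28.9, 25.2 and 33.9 TPM against 23.4 to 24.7 TPM in WT5, with a log2 difference of 0.31 (SE 0.09, limma adjusted p = 0.00787). The call was lost without any 1 of the 8 libraries except replicate 3 of subclone 1, with adjusted p-values up to 0.0235 in limma, and with the unequal-variance test (adjusted p = 0.0544). In subclone 5, Itpr3 and Itpr1 were at 27.8 ± 4.90 and 7.77 ± 1.28 TPM (SD, n = 4) and missed the threshold (limma adjusted p = 0.0282 and 0.0176). Without replicate 1 both passed it, with log2 differences of 0.33 and 0.41. Itpr2 stayed at 1.67 to 3.32 TPM over the 20 subclone libraries, against 0.60 to 0.73 TPM in polyclonal cells, and passed the test against WT5 in no subclone (limma adjusted p = 0.0235 to 0.935).

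**Figure D4:**
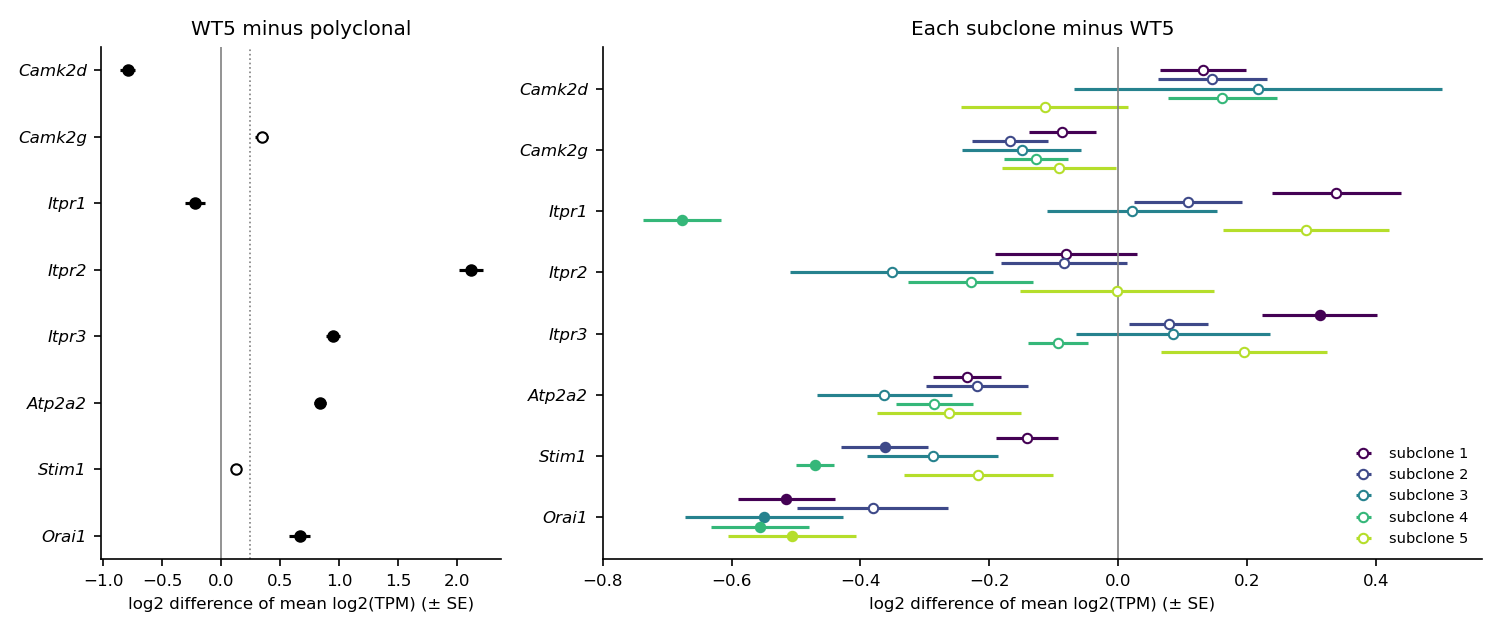
Log2 difference (horizontal axes, ± SE) of WT5 minus polyclonal cells (left) and of each subclone minus WT5 (right) for the 8 members above 1 TPM in most groups, n = 4 libraries a group; filled points have a limma adjusted p below 0.01, and the dotted line is the median of all genes, 0.24. Orai1 is below WT5 in all 5 subclones, and Itpr1 is below it in subclone 4.

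Among the 5 subclones themselves, Itpr1 and Stim1 differed in a moderated F-test at an adjusted p below 0.01, 2 of 10 members against 24.6% of 14031 genes. Itpr1 was at 3.88, 4.14, 3.79 and 3.90 TPM in subclone 4, and no library of another subclone was below 5.02 TPM. The means of the other subclones were 6.45 to 7.99 TPM, and their libraries overlapped each other in the order subclone 1, 5, 2 and 3. Subclone 1 stood 1.02 above subclone 4 on the log2 scale (limma F-test, adjusted p = 1.39e-07). Each of the 4 pairs with subclone 4 passed the test, with log2 differences of -1.02, -0.79 and -0.70 against subclones 1, 2 and 3 and 0.97 for subclone 5 minus subclone 4 (SE 0.13 each, limma adjusted p at most 4.85e-06), where 12.6%, 14.5%, 12.2% and 20.2% of all genes passed. In the pairs without subclone 4, 0 members passed except Camk2a between subclones 5 and 3 (8.67% of genes), beside 3.68% of genes for subclones 2 and 1, 3.44% for 3 and 1, 9.01% for 5 and 1, 3.82% for 3 and 2, and 8.91% for 5 and 2. Subclone 4 was also lower than WT5, by 0.68 on the log2 scale (SE 0.06, limma adjusted p = 5.32e-05). Leaving out each of the 20 libraries in turn kept the F-test at adjusted p-values of 9.04e-08 to 1.90e-06 in limma.

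The share of Itpr1 in the summed IP3 receptor TPM was 13.6% ± 0.33 in subclone 4, against 18.7 to 20.2% as means of the other subclones and 19.0% ± 1.11 in WT5. Its share was apart from that of each other subclone in all libraries (4 pairs, exact permutation test, p = 0.0286 before and 0.0714 after adjustment over 10 pairs). Itpr3 took 77.9% ± 1.16 there, the highest mean of the 7 groups, while its level of 22.5 ± 1.20 TPM (SD, n = 4) was the lowest among the subclones. The share of Itpr2 was 8.48% ± 0.95 in subclone 4 and 8.65% ± 1.00 in WT5.

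Genes around Itpr1 were lower in subclone 4 as well. Within 2 Mb, 7 of 8 genes at 1 TPM or more in every subclone library were below the mean of the other 4 subclones, Trnt1, Crbn, Setmar, Sumf1, Bhlhe40, Arl8b and Edem1, by 0.40 to 0.67 on the log2 scale, and only the pseudogene Rpl36-ps12 was 0.26 higher. Itpr1 itself was lower by 0.87. Between 70 and 130 Mb of chromosome 6, 261 of 272 genes were lower in subclone 4, 96% against 49.3% of 10756 genes on other chromosomes, with a median of -0.54 against 0.00. These bounds are those of a run of low bins in the same values, so the 96% describes the stretch and does not test it. In that stretch 8 genes, Itpr1 among them, were as low as Itpr1 or lower. Bins from 0 to 20 Mb had medians of -0.55 and -0.52, those from 50 to 70 Mb 0.32 and 0.33, and those from 130 to 150 Mb, where Itpr2 lies, 0.04 and -0.01. Against WT5, the same 272 genes had a median of -0.65 in subclone 4 and of -0.11 to -0.05 in the other subclones. Of 257 bins over the genome, 8 had a median of -0.4 or lower in subclone 4 against the other subclones, and all 8 were those on chromosome 6 just described. A median of 0.4 or higher was found in 5 bins, all on other chromosomes. The part of this stretch in the level of Itpr1 was not tested.

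**Figure D5:**
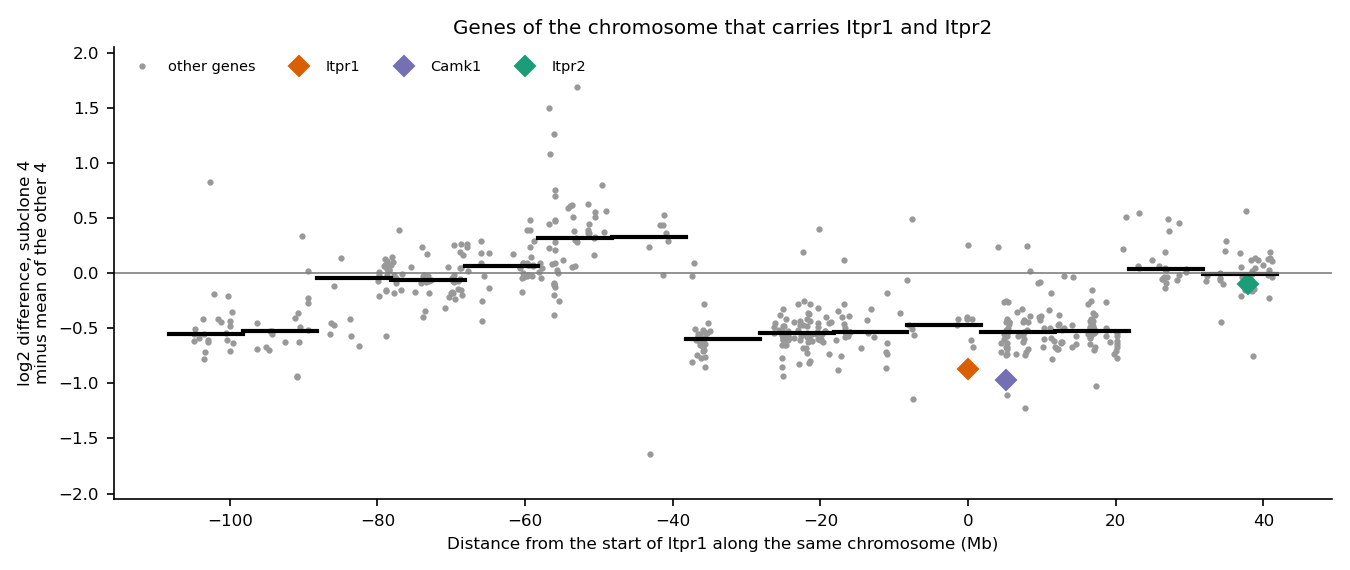
Log2 difference of subclone 4 minus the mean of the other 4 subclones (vertical axis) against distance from the start of Itpr1 on the same chromosome in Mb (horizontal axis); dots are genes at 1 TPM or more in every subclone library, bars medians of 10 Mb bins. Itpr1 and Camk1 lie in a stretch with bin medians of -0.60 to -0.47, and Itpr2 lies outside it.

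The 3 genes most like Itpr1 over the 20 subclone libraries, a list added after values were seen, were Plxnd1, Ggcx and Tgfa, with Pearson r of 0.974, 0.971 and 0.969 among 10169 genes with a mean of at least 5 TPM. All 3 lie on chromosome 6. These points share libraries, and 4 of the 20 are subclone 4.

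Stim1 was the second member that differed among the subclones (limma F-test, adjusted p = 0.00284). It was at 12.5, 12.3, 12.3 and 12.1 TPM in subclone 4 and at 16.2, 15.7, 14.1 and 15.8 TPM in subclone 1, and was lower in subclone 4 than in subclone 1 by 0.33 (limma adjusted p = 0.00134) and than in subclone 5 by 0.25 on the log2 scale (adjusted p = 0.00145). The libraries of subclones next to each other in the order of means overlapped. The F-test call was lost without replicate 4 of subclone 4 (limma adjusted p = 0.0108) and without the z-score (adjusted p = 0.172). The 75 genes within 5 Mb of Stim1 had a median of -0.02 in subclone 4 against the other subclones.

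Camk2d had no difference among the subclones that passed the test (limma F-test, adjusted p = 0.645), but 1 library stood apart. It was at 97.4, 36.1, 42.2 and 48.1 TPM in the 4 libraries of subclone 3, and at 32.2 to 53.8 TPM in the other 16 subclone libraries. The value in replicate 1 lies above all 4 polyclonal libraries, and the share of Camk2d there was 84.9%, while Camk2g was at 17.1 TPM. It was 1.81 times the highest of the other 19 libraries, and of 8861 genes with a mean of at least 10 TPM, Camk2d was the only one in that library to pass 1.6 times. The other 19 libraries had 0 to 2 such genes each. Without it, subclone 3 had a mean of 42.2 TPM and a range of 36.1 to 48.1 TPM (n = 3), against 56.0 ± 28.1 TPM (SD) with all 4. The cause was not tested. Against WT5, Camk2d passed the limma test in no subclone, with log2 differences of -0.11 to 0.22. The 0.22 was in subclone 3 with replicate 1 included, whose mean without it, 42.2 TPM, was below the 44.6 TPM of WT5. Leaving out each library in turn gave limma F-test adjusted p-values of 0.0689 to 0.843 for Camk2d among the subclones.

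The genes most like Camk2d over the 20 subclone libraries were Pla2g6, Vsig10 and Ubap1 (Pearson r of 0.840, 0.812 and 0.810), and without that library they were Upf3a, Rest and Elk3 (0.956, 0.947 and 0.946). By log2 range the widest member was Camk2a, at 0.03 to 0.23 TPM near the rounding of 0.01 TPM, and the genes most like it were Il34, Zfp52 and Styx (0.808, 0.712 and 0.701). All these points share libraries and their differences in transcript length.

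Libraries differed in the level of long transcripts. The 687 genes of 8000 bases or more had a median log2 deviation from the mean of the 20 subclone libraries of -0.39 in subclone 3 replicate 2 and -0.34 in subclone 5 replicate 1, and of -0.14 to 0.18 in the other 18. In the same 2 libraries the median over all genes was also low, at -0.17 and -0.20, against -0.05 to 0.08 in the others, so that not only long transcripts were low there. Of the 8 members above 1 TPM in the subclones, all 8 were lowest of their group in the former library and 7 in the latter, as 7 also were in subclone 1 replicate 3 and in subclone 2 replicate 2. With these and replicate 1 of subclone 3 left out together, Itpr1 and Stim1 still passed the F-test among subclones (limma adjusted p = 4.18e-07 and 0.00049), and 0 members passed against WT5 in subclone 3 and 2 in subclone 5.

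5 lists of other calcium genes, 162 of 163 matched by name, were set beside the members. Of the calmodulin, CaM kinase and calcineurin genes, 17 of 23 tested passed the test between WT5 and polyclonal cells, 10 higher and 7 lower in WT5, 73.9% against 65.5% of all genes. Their median log2 difference was 0.27, near the 0.24 of all genes. Rcan2, a regulator of calcineurin, was at 0.085 TPM in polyclonal cells and 10.3 TPM in WT5, and the kinase kinase gene Camkk1 at 1.13 and 5.19 TPM. Among the subclones, Camk1, a CaM kinase gene that lies in the same stretch of chromosome 6 as Itpr1, was at 26.5 TPM in subclone 4 and at 49.3 to 54.1 TPM in the others (limma F-test, adjusted p = 5.83e-08), while Camk1d was at 0.15 to 0.433 TPM as subclone means (adjusted p = 4.28e-06).

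Phospholipase C genes, which make IP3, and genes of IP3 receptor partners passed in 21 of 27 cases, 16 higher and 5 lower in WT5, 77.8% against 65.5% of all genes. Of all genes, 34.5% passed as higher and 30.9% as lower. The median log2 difference of the list was 0.59, against 0.24 for all genes. Plcg2 rose from 1.40 to 5.61 TPM as group means, and Bcl2, whose protein binds IP3 receptors, from 0.915 to 3.78 TPM. Plcg2 also had the widest range among subclones in this list, from 1.65 TPM in subclone 3 to 6.70 TPM in subclone 4 (limma F-test, adjusted p = 1.49e-11). Itpka, which phosphorylates IP3, was at 5.80 TPM in subclone 3 and 8.72 TPM in subclone 5 (adjusted p = 5.81e-05).

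Other ER channels, pumps and luminal calcium binders passed in 20 of 27 cases, 7 higher and 13 lower, or 74.1% against 65.5% of all genes (34.5% higher, 30.9% lower), with a median log2 difference of -0.10. Rcn1, a luminal reticulocalbin, rose from 0.138 to 7.99 TPM, and Atp2a3, the gene of the pump SERCA3, was at 0.275 TPM in WT5 and 0.085 in polyclonal cells, far under Atp2a2. Rcn3 was 1 of 2 list genes past both thresholds in a subclone, at 2.14 TPM in WT5 and 0.243 TPM in subclone 2 (limma adjusted p = 0.0015). It was lower than WT5 in the other 4 subclones too, at 0.795 to 1.13 TPM (limma adjusted p at most 0.00991), a shared difference that cannot be told apart from one between tables. Hrc stayed under 1 TPM as group means.

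Genes of store-operated and other plasma membrane calcium entry passed in 14 of 23 cases, 10 higher and 4 lower, or 60.9% against 65.5% of all genes (34.5% higher, 30.9% lower), with a median log2 difference of 0.39. Tmem178, reported to act with STIM1, rose from 30.5 to 194 TPM (log2 difference 2.67, SE 0.05, limma adjusted p = 9.57e-09) and was at 116 to 159 TPM in the subclones. The voltage-gated channel subunit gene Cacnb1 rose from 0.66 to 4.33 TPM and ranged from 2.48 TPM in subclone 4 to 6.96 TPM in subclone 1, and Cacnb2 was at 0.11 TPM in WT5 and 0.86 TPM in subclone 2 (limma adjusted p = 0.00811). In subclones 1, 3, 4 and 5 the mean of Cacnb2 was also above WT5, at 0.623, 0.468, 0.598 and 0.225 TPM, with limma adjusted p-values of 0.0123 to 0.22. Extrusion, Golgi and mitochondrial genes passed in 13 of 18 cases, 3 higher and 10 lower, or 72.2% against 65.5% of all genes (34.5% higher, 30.9% lower), with a median log2 difference of -0.07. The exchanger gene Slc24a5 fell from 1.47 to 0.0875 TPM and the secretory pathway pump gene Atp2c2 from 1.00 to 0.238 TPM, while Atp2b4 and Slc8a2, at most 0.935 and 0.403 TPM as subclone means, passed the F-test among subclones.

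Against WT5, the share of list genes that passed in a subclone was 26.1 to 47.8% for calmodulin and kinase genes, 29.6 to 48.1% for phospholipase C and partner genes, 19.2 to 38.5% for other ER genes, 16.7 to 58.3% for entry genes and 5.56 to 38.9% for extrusion genes. All genes gave 19.5 to 37.3%. The highest share of each list was in subclone 4, which also had the highest share over all genes, except for extrusion genes, whose highest share was reached in subclones 1 and 4 alike.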

How the data were processed

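RNA was sequenced from 28 libraries of mIMCD-3 cells, 4 in each of 7 groups. The authors deposited TPM values in a pair of tables, one of polyclonal cells and WT5 and one of the subclones, made per the labels with CASAVA 1.8, STAR 2.7.3a and RSEM 1.3.1 on GRCm38, with Ensembl annotation. Values carry 2 decimals, and no read counts or depth can be had from TPM, so no counting error is given. The tables were joined by gene identifier, and 45143 of 45706 identifiers had a symbol. Here log2(TPM) of genes above 0 in every library of a comparison was z-score transformed within each library and tested with limma 3.58.1 in R 4.3.3, two-sided, with Benjamini-Hochberg adjustment over all genes. The design gave the 20 subclone libraries an F-test and 10 pairs. A gene passed the test at an adjusted p below 0.01. Shares were compared by exact permutation tests (scipy 1.17.1). Scripts were tested on simulated data. Positions and transcript lengths are from GENCODE M21, of the same build.

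The members and gene lists were chosen with earlier results of these data known. Named besides the members are, of each list, the genes past both thresholds, the 2 with the largest difference between WT5 and polyclonal cells, and the 2 with the widest range among subclones. Alternatives were an unequal-variance test, other pseudocounts, filters and scalings, an adjusted p below 0.05, a replicate block and each library left out. Removal of a length trend and leaving out 3 libraries together were chosen after seeing the data, as were the comparisons with neighbouring genes. Replicate numbers were not taken to pair libraries.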

Additional observations from a re-analysis of the deposited data

Results flagged for a closer look

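The mean of Itpr1 was below WT5 in subclone 4 and above it in subclones 1, 2, 3 and 5. None of the increases passed the test, and in subclone 3 it was only 0.02 on the log2 scale. The difference between subclones was itself tested. On the log2 scale, subclone 4 was lower than subclone 1 by 1.02 (value -1.02), than subclone 2 (value -0.79) and than subclone 3 (value -0.70), and subclone 5 minus subclone 4 was 0.97 (limma adjusted p = 9.30e-08, 1.30e-06, 4.85e-06 and 5.56e-08).

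The mean of Camk2a was below WT5 in subclone 3 and above it in subclone 5, neither past the test, and subclone 5 minus subclone 3 was 1.99 on the log2 scale (limma adjusted p = 0.00513), at group means of 0.1725 and 0.045 TPM, near the lowest value the tables can hold.

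Of 70 sets of 4 libraries, 1 for each member and group, 2 had a library far from its other 3, where chance flags about 1 in 20. Camk2a was at 0.09 TPM in subclone 5 replicate 4, and Atp2a2 at 167 TPM in WT5 replicate 3. Camk2d at 97.4 TPM in subclone 3 replicate 1 did not reach the same threshold, with a gap of 0.804 of its range.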

How the results depend on the processing

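The count of members past the test between WT5 and polyclonal cells was 6 and stayed within 6 to 9 under every alternative run, and 1 member, Itpr2, passed the size threshold when log2 differences took the place of z-scores (0 in the report). Against WT5 the counts were 2, 1, 1, 4 and 1 in subclones 1 to 5. In subclone 1 they became 1 with the unequal-variance test, 1 with 0.1 TPM added over all genes above 0 in any library, 1 without z-scores, 7 at an adjusted p below 0.05 and 4 with the length trend removed. In subclone 2 they became 0 with the unequal-variance test, 2 when rescaled to protein-coding genes, 4 at an adjusted p below 0.05 and 2 with all libraries in one fit. In subclone 3 they became 0 with the unequal-variance test, 0 with 0.1 TPM added, 0 without z-scores, 4 at an adjusted p below 0.05, 4 with all libraries in one fit and 0 with 3 libraries left out. In subclone 4 no alternative moved the count past 1.5 times. In subclone 5 they became 0 with the unequal-variance test, 0 with 0.1 TPM added, 2 with a mean of at least 1 TPM, 2 when rescaled, 3 at an adjusted p below 0.05, 3 with the length trend removed, 2 with all libraries in one fit and 2 with 3 libraries left out. Among the subclones the count of 2 became 1 with 0.1 TPM added, 1 without z-scores, 6 at an adjusted p below 0.05 and 3 with the length trend removed.

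With the replicate block, the counts against WT5 were 0, 0, 0, 4 and 0 in subclones 1 to 5, and 6 and 2 in the other comparisons. In WT5 against polyclonal cells and the subclones against WT5, libraries of the same number had correlations of their deviations of -0.04 to 0.05, and not every library correlated best with its own number, so the numbers were not read as pairs. On leaving out 1 library, the counts were 6 throughout for WT5 against polyclonal cells, 1 to 3, 1, 0 to 2, 3 to 4 and 0 to 2 for subclones 1 to 5, and 1 to 3 among the subclones.

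The 1 reversed call was Stim1 between WT5 and polyclonal cells, with a z-score difference of 0.0428 (limma adjusted p = 0.00786) instead of -0.03 when 0.1 TPM was added. Camk2b, at 0.12 to 0.22 TPM in subclone 4, was lower than WT5 there (limma adjusted p = 0.00888) and lost the call with the unequal-variance test, with 1 or 0.1 TPM added, without z-scores, rescaled, under the block and with the length trend removed. Of 216 alternatives for shares of Camk2d, Itpr1, Itpr2 and Itpr3, all moved by less than 1 SD. For Camk2d in subclone 3 that SD was wide, 6.48 percentage points. Its share difference from WT5 ran from 1.28 to 5.75 points on leaving out 1 library. Some small differences from WT5 changed sign, such as Camk2d in subclone 5 (-0.86 to 0.60) and Itpr2 in subclone 4 (-0.57 to 0.28). The causes of these changes were not tested. Genes under 1 TPM are limited by rounding to 0.01 TPM, and no depth is known.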
